A study of Rattus norvegicus with 18 samples.

Results

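The hippocampal transcript levels of alcohol-diet and isocaloric-diet rats that had not been trained were compared on 6 arrays, 4 labelled alcohol diet and naive and 2 labelled isocaloric diet and naive, of 18 arrays in all. Membership follows these labels and uses no measured value. All 18 were hybridised with total RNA from hippocampus in a series on learning in rats exposed to alcohol as fetuses. The other 12 held the same diets after a training procedure abbreviated CFC (4 alcohol, 4 isocaloric), and a control diet (2 naive, 2 trained), and their spread entered the fit. The isocaloric diet is the usual comparison for an alcohol diet because it is matched in calories. The labels give no strain, sex, age, alcohol dose or litter. They do not say that replicates were separate animals, so p-values measure the spread between these samples, and littermates, which share a prenatal exposure, could not be told from unrelated rats.

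The hippocampus encodes contextual and spatial memory, and alcohol before birth is known to impair learning that depends on it. Naive animals show transcript levels without the added response to training. Transcripts of oxidative phosphorylation, protein synthesis and protein breakdown are abundant in its neurons, while receptors, immediate early genes and transcription regulators mostly give weaker signals.

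The 6 arrays resembled one another closely. Pearson correlations over probe sets on the log2 scale were 0.969 to 0.982, with the pair of isocaloric arrays at 0.982. Median signal was 72.2 to 75.4 on the alcohol arrays and 77.1 and 80.3 on the isocaloric ones, and the groups did not overlap. Signals from the 3' and 5' ends of control transcripts, a sign of RNA integrity, gave log2 ratios for Gapdh of 0.20 ± 0.11 (SD, n = 4) with alcohol and 0.14 ± 0.02 (n = 2) with the isocaloric diet. The means for actin and hexokinase were lower with alcohol. Actin gave 0.32 ± 0.14 with alcohol and 0.459 ± 0.003 with the isocaloric diet, and hexokinase 0.87 ± 0.15 and 1.05 ± 0.16. The exact two-sided permutation p was 0.667 for Gapdh, 0.40 for actin and 0.267 for hexokinase (0.667, 0.60 and 0.60 after Benjamini-Hochberg adjustment over the 3), in a design whose smallest possible p is 0.133. Neuronal markers were strong on all 6 arrays, with Snap25 between 2874 and 4685, as were the CA1 marker Wfs1 (911 to 1186) and the astrocyte marker Gfap (1796 to 2669). The dentate marker Prox1 was weaker (133 to 242), and of 7 dentate markers on the array 3 passed the filter on low signal. One alcohol array, replicate 2, stood apart in choroid plexus transcripts. On it transthyretin (Ttr), the main secreted protein of that tissue, gave 6528, against 62.5 to 178 on the other 5 arrays.

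Transcripts of 6 named genes fell with the alcohol diet in naive rats, to between 39.9% and 69.9% of the isocaloric level, and none rose past the threshold. The genes were Taf9b, Ube2d2, Serinc1, Xpo1, Fam131a and Apc. They act in transcription initiation, ubiquitin transfer, membrane lipid supply, nuclear export and Wnt signalling, apart from Fam131a, for which no role is given here. With 1 more probe set that has no gene symbol (-0.43 ± 0.08), they made 7 of 9520 probe sets tested, or 0.0735% (limma, pooled spread over 18 arrays, Benjamini-Hochberg adjusted p under 0.05), while 0 (0%) were higher. At an unadjusted p under 0.05, limma gave 535 higher and 647 lower. Differences are given on the log2(signal + 6.06) scale as alcohol minus isocaloric, with their standard error (SE), and this scale understates changes of dim probe sets.

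The promoters of 3 of these genes are shown because their transcripts fell on the same arrays, and so that the shared letters can be compared. Each is the RefSeq sequence from 250 bases before to 50 after the start of the gene, 300 bases in all, read 5' to 3' on the gene's strand in build GRCr8. Serinc1 lies on the minus strand at chr20:37415384-37415683, Taf9b on the minus strand at chrX:75364047-75364346 and Xpo1 on the plus strand at chr14:101434200-101434499. Capitals mark GGGCGG (the GC box) and CCAAT (the CCAAT box) on either strand.
Serinc1: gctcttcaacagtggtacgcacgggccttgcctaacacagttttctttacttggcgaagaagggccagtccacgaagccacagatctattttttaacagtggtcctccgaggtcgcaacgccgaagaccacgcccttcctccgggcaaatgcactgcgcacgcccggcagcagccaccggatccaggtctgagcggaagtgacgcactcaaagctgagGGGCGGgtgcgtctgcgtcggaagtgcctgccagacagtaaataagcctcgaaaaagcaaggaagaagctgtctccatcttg
Taf9b: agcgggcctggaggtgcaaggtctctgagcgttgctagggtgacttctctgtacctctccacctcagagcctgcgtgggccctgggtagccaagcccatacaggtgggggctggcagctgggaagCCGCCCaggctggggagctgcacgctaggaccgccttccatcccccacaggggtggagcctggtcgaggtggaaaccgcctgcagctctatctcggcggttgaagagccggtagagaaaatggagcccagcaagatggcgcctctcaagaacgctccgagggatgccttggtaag
Xpo1: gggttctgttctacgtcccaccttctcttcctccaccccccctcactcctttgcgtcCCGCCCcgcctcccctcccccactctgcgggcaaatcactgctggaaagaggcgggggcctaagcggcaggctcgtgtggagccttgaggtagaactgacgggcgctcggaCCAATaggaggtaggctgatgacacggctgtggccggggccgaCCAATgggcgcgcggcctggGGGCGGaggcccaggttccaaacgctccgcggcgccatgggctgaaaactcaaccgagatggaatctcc

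Serinc1 and Taf9b each held 1 GC box, and Xpo1 held 2 GC boxes and 2 CCAAT boxes. Of 33469 rat promoters of the same length, 33.1% held a GC box and 37.5% a CCAAT box on either strand. The promoter of Ube2d2 held 3 GC boxes and 1 CCAAT box, that of Apc 1 CCAAT box and no GC box, and the 2 listed for Fam131a held neither. GC content was 44.3% for Apc, 57.0% for Serinc1, 63.7% for Taf9b, 66.0% for Xpo1, 75.7% for Ube2d2 and 53.7% and 59.7% for Fam131a, against a median of 51.7% over all promoters. An E-box of the letters CACGTG, found in 6.42% of promoters, was in none of these 7 windows. Nor was a TATA box (TATAAA), found in 14.2%. The cAMP response element, TGACGTCA, which 1.83% of promoters hold, was absent from them too. These matches describe the letters in the window.

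Taf9b, a relative of the TFIID subunit Taf9, showed the largest of the 7 differences. Its signal was 45.9, 52.6, 36.7 and 42.7 on the 4 alcohol arrays and 109 and 114 on the isocaloric arrays. All alcohol arrays lay under the lower isocaloric value by a factor of more than 2. The difference was -1.23 ± 0.21 (limma adjusted p = 0.0248). The naive control-diet arrays, which enter neither side of this comparison, gave 37.8 and 34.5. Taf9 itself, at 423 to 471 with alcohol and 397 and 412 without, differed by 0.14 ± 0.10 (limma adjusted p = 0.585).

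Ube2d2 encodes an E2 enzyme that passes ubiquitin to substrates. On the probe set that passed, signal was 52.4, 71.7, 48.5 and 58.7 with alcohol and 125 and 132 with the isocaloric diet. The groups did not overlap, and the difference was -1.09 ± 0.18 (limma adjusted p = 0.0212). The gene's other probe sets did not show this size. The brightest gave -0.43 ± 0.16 (adjusted p = 0.274), with both isocaloric arrays again above the 4 alcohol arrays, and the third 0.23 ± 0.15 (adjusted p = 0.553). Its relative Ube2d1 ranged from 79.6 to 252 with alcohol, around the isocaloric values of 233 and 220.

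Serinc1, a serine incorporator of cell membranes, gave 710, 814, 641 and 652 with alcohol and 1210 and 1087 with the isocaloric diet. Again no alcohol array reached an isocaloric one, and the difference was -0.71 ± 0.11 (limma adjusted p = 0.0212). None of its 3 measured relatives passed. Serinc3 (-0.41 ± 0.16) and Serinc5 (-0.27 ± 0.14) were also below both isocaloric arrays on all 4 alcohol arrays, whereas Serinc2 (-0.38 ± 0.21) overlapped.

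Xpo1 encodes exportin 1, which carries proteins with a leucine-rich export signal out of the nucleus. Its signal was 245, 210, 260 and 250 with alcohol against 428 and 359, without overlap (-0.69 ± 0.12, limma adjusted p = 0.0326). A second, dimmer Xpo1 probe set gave 0.00 ± 0.12 (adjusted p = 0.998), so the fall rests on 1 of 2 probe sets. Among other exportins, Xpo5, which exports microRNA precursors, gave -0.31 ± 0.11 without overlap and did not pass, and Xpo6 (-0.04 ± 0.12) and Xpo7 (0.01 ± 0.09) overlapped.

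Apc, a scaffold of the beta-catenin destruction complex that also binds microtubules, had the smallest standard error of the 6 named genes. It gave 297, 295, 319 and 343 with alcohol and 450 and 447 with the isocaloric diet (-0.51 ± 0.08, limma adjusted p = 0.0212). The gap between the groups exceeded the range within either. A dimmer second Apc probe set overlapped between the diets (-0.09 ± 0.16, adjusted p = 0.864). Fam131a gave 413, 397, 415 and 443 against 646 and 606 (-0.58 ± 0.10, limma adjusted p = 0.0326), and its groups also lay apart.

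For all 6 genes both naive control-diet arrays lay below both isocaloric naive arrays. Fam131a gave 385 and 468 on the control arrays, Apc 327 and 294, Xpo1 258 and 280, Serinc1 750 and 964, and Ube2d2 65.3 and 76.2. A comparison with the control diet would share the isocaloric arrays with the one described here, so these levels are given without a test. The control arrays stood apart from both other diets for some genes. Camk2a gave 1003 and 1412 on them, against 174 to 446 on the 6 arrays compared, and Cldn5 113 and 111 against 262 to 327. All values of control naive replicate 1 were given with at most 6 digits, against 3.40% of those of replicate 2.

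**Figure D1:**
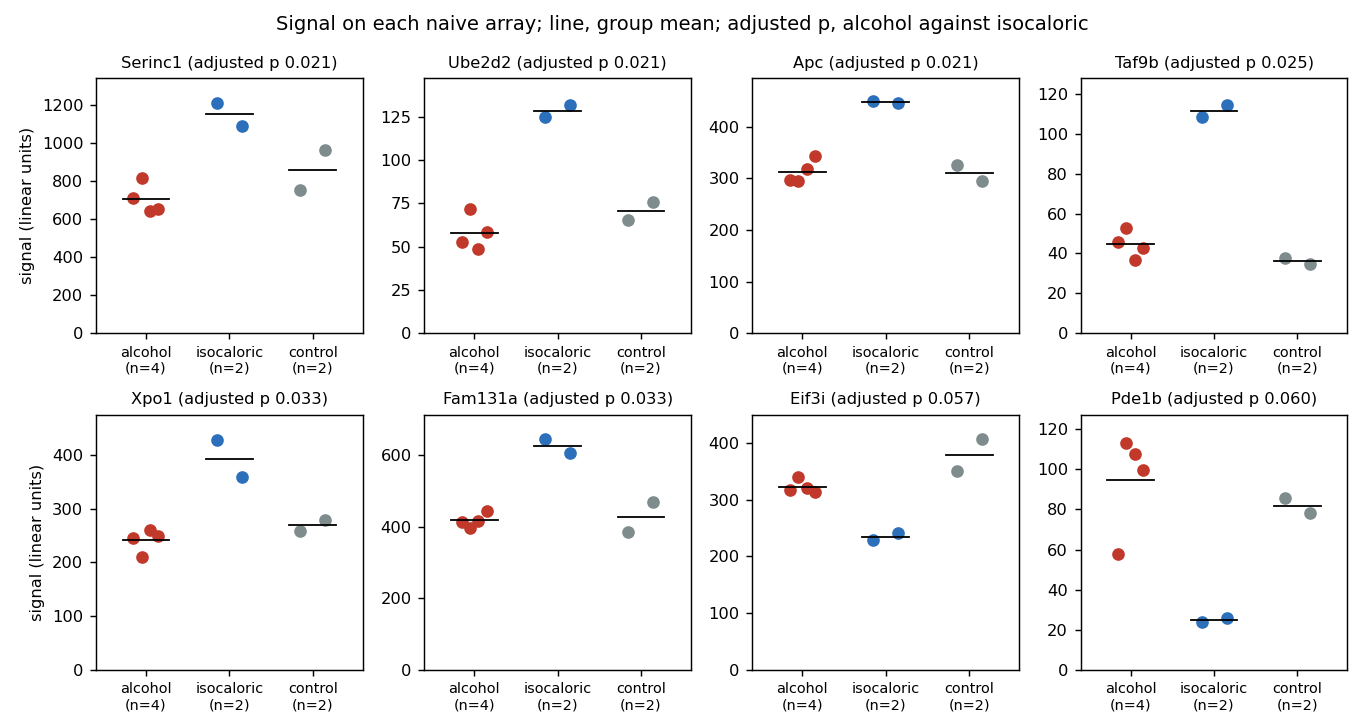
Signal in linear units (vertical axes start at 0) on each naive array, by diet, for the 6 genes that passed the threshold and for Eif3i and Pde1b, which did not. Points are arrays and lines are group means. In each panel the 4 alcohol arrays lie on 1 side of both isocaloric arrays, as for Taf9b (36.7 to 52.6 against 109 and 114). For Eif3i and Pde1b the rule that chose them required this.

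Genes higher with alcohol came close to the threshold without passing it, and 12 are given as values. They had the smallest p among those of at least 0.3 (log2) without overlap between the diets. Eif3i, a subunit of translation initiation factor 3, gave 316, 341, 320 and 314 against 228 and 241, a difference of 0.45 ± 0.09 (limma adjusted p = 0.0566). Pde1b, a calmodulin-dependent phosphodiesterase that breaks down cyclic AMP and cyclic GMP, gave 58.0, 113, 108 and 99.7 against 23.6 and 25.8, or 1.67 ± 0.35 (adjusted p = 0.0598). Neither gene overlapped between the diets, as the rule that chose the 12 required. Pde1b is also a striatal marker, and the 10 striatal markers measured had a median difference of 0.08. Its relative Pde1a differed by -0.02 ± 0.15.

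Several of the 12 act in metabolism. Por, the reductase that supplies electrons to cytochrome P450 enzymes, gave 0.65 ± 0.14. Pecr, a peroxisomal enoyl-CoA reductase, gave 0.63 ± 0.15, and Isca1, of iron-sulfur cluster assembly, 0.59 ± 0.13, although a second, brighter Isca1 probe set gave -0.11 ± 0.10. The mitochondrial chaperone Clpb gave 0.88 ± 0.21, with isocaloric arrays apart at 42.6 and 24.2 against 54.9 to 73.0 with alcohol. Tsen15, a subunit of the tRNA splicing endonuclease, gave 1.67 ± 0.38, but its isocaloric arrays were at 51.5 and 9.01, so the size of that difference rests on the second. Gabbr1, a subunit of the metabotropic GABA receptor, gave 0.83 ± 0.19 on 1 probe set, while its other 3 gave -0.09, -0.08 and 0.05. On the probe set that gave 0.83, the isocaloric arrays were also apart, at 110.2 and 179.5. The rest were the calcium-binding protein Cib1 (0.53 ± 0.11), the LIM-only cofactor Lmo3 (0.53 ± 0.12), Mpnd (0.68 ± 0.15) and Cdip1 (0.50 ± 0.11). The other 2 Cdip1 probe sets gave 0.16 and 0.20, and a second Por probe set gave 0.28 with overlap. Limma adjusted p for the 12 was 0.0566 to 0.0953. Both naive control-diet arrays also lay above both isocaloric arrays for each of the 12 except Gabbr1, Pecr and Cdip1, which overlapped. Eif3i, for example, gave 351 and 407 on the control arrays. The 12 were chosen for isocaloric arrays below all alcohol arrays, and the same isocaloric arrays enter here. That choice favours this order, so it is not separate evidence, and its share over all probe sets was not counted. The same limit holds for the control values of list members given below.

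The 6 lower genes nearest to the threshold are also given as values. Zbtb18, a zinc finger repressor needed in developing neurons, gave 863, 907, 641 and 815 against 1316 and 1213 (-0.66 ± 0.13, limma adjusted p = 0.0543). Its second probe set pointed the other way, at 0.29 ± 0.10 (adjusted p = 0.257). Zbtb38, a zinc finger protein that binds methylated DNA, gave -0.97 ± 0.20, and Ints6, of the Integrator complex that processes small nuclear RNA, -0.62 ± 0.12. Eif4e, which binds the mRNA cap, gave -0.65 ± 0.13 on a dim probe set and 0.02 ± 0.11 on a bright one. Pcmtd2 (-0.95 ± 0.18, and -0.39 ± 0.16 on a second probe set) and Lrrc58 (-0.72 ± 0.15) were the others, and limma adjusted p was 0.0543 to 0.0579. All 6 lay below both isocaloric arrays on all 4 alcohol arrays, as the rule that chose them required.

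**Figure D2:**
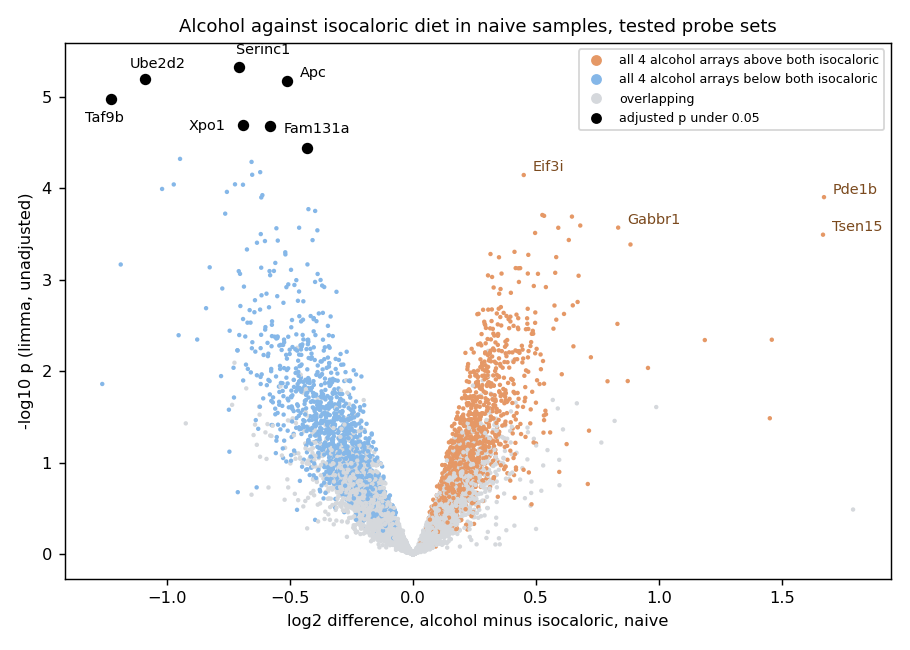
Difference in log2 signal (alcohol minus isocaloric, naive, horizontal axis) against -log10 of the unadjusted limma p (vertical axis) for the 9520 probe sets tested. Black points passed the adjusted threshold; all 7 are lower with alcohol. Orange and blue points are probe sets whose 4 alcohol arrays lay wholly above or below both isocaloric arrays.

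Differences without overlap were common and ran in both directions. All 4 alcohol arrays lay above both isocaloric arrays for 1307 probe sets (13.7% of 9520) and below both for 1460 (15.3%). They differed in brightness. In the brightest 20% of tested probe sets 28.4% lay above and 8.67% below, and in the dimmest 20% 4.46% lay above and 21.2% below. The median difference ran from -0.11 in the dimmest 20% to 0.07 in the brightest, and from -0.06 to 0.03 in trained samples. Genes that lay below were also longer: among probe sets with 1 gene symbol, the median span of the gene in the genome was 34.9 kb for those below (1160 with a value), 16.2 kb for those above (1142) and 26.1 kb over all tested (8024). How far brightness, array scaling or gene length contributes to either set was not tested.

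**Figure D3:**
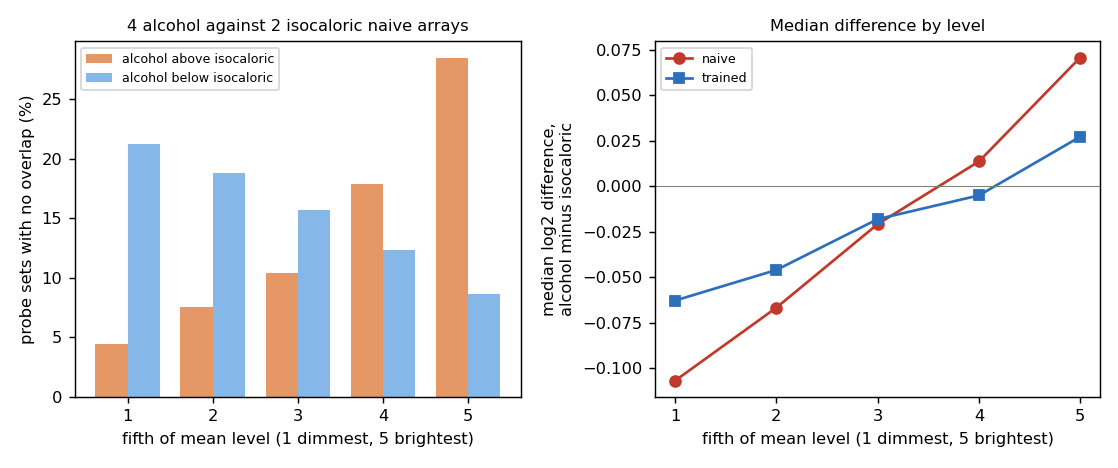
Left, percentage of probe sets in each of 5 equal classes of mean log2 level whose 4 alcohol naive arrays lay wholly above or below both isocaloric naive arrays. Right, median log2 difference, alcohol minus isocaloric, in each class for naive and trained samples. Brighter probe sets lay above more often (28.4% in the brightest 20%, 4.46% in the dimmest).

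Nuclear-encoded subunits of oxidative phosphorylation, the respiratory chain and ATP synthase, lay higher with alcohol as a list, though none of the 71 measured passed the threshold. Of the 71, 39 (54.9%, against 13.7% of all probe sets) lay above both isocaloric arrays on all 4 alcohol arrays and 0 lay below (15.3% of all). Their median difference was 0.17, against -0.02 over all probe sets tested, and 66 of 71 were above 0. Each alcohol array taken alone had a median above the isocaloric mean, from 0.12 (replicate 4) to 0.22 (replicate 1). Their probe sets were bright, and 63 of 71 lay in the brightest 20%, where 28.4% of probe sets lay above. After quantile normalization the list median was 0.12, with the median of all probe sets at 0.01.

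Each complex had subunits above both isocaloric arrays and none below. Complex I, which oxidises NADH, had 22 of 35 above (median 0.18), and ATP synthase 7 of 14 (median 0.21). Complexes II, III and IV had 2 of 4 (median 0.10), 4 of 8 (0.11) and 4 of 10 (0.17). The brightest class of probe sets, where 28.4% lay above, held 28 of 35 subunits of complex I and 14 of 14 of ATP synthase. It also held 4 of 4, 8 of 8 and 9 of 10 in complexes II, III and IV. Whether the count of any complex departs from that share was not tested. Atp5f1d, the delta subunit of ATP synthase, gave 915, 1008, 1036 and 909 against 745 and 704 (0.41 ± 0.10, limma adjusted p = 0.108). The complex I subunits Ndufa3 (0.47 ± 0.11) and Ndufab1 (0.40 ± 0.11) likewise lay apart without passing. On the naive control-diet arrays Atp5f1d gave 1119 and 1330, Ndufa3 790 and 847, and Ndufab1 623 and 810. For each of them both control arrays also lay above both isocaloric arrays. The whole list was not compared with the control diet.

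The cytosolic ribosomal proteins had a median of 0.17, with 17 of 39 above both isocaloric arrays (43.6%, against 13.7% of all probe sets) and 1 below (2.56%, against 15.3%). That median was less even across arrays, from 0.01 on replicate 4 to 0.30 on replicate 2, and 38 of the 39 lay in the brightest 20%, where 28.4% of all probe sets lay above. After quantile normalization the ribosomal median was 0.07, with the median of all probe sets at 0.01. Rpsa gave 1274, 1510, 1372 and 1066 against 911 and 907 (0.51 ± 0.13, limma adjusted p = 0.122). Rplp0, of the ribosomal stalk, gave 0.33 ± 0.11 and Rps15 0.42 ± 0.14. The naive control-diet arrays also lay above both isocaloric arrays for Rpsa (1240 and 1824), Rplp0 (1183 and 1508) and Rps15 (1287 and 1962). Translation factors were split, with 9 of 46 above (19.6%, against 13.7% of all) and 5 below (10.9%, against 15.3%). Their median was 0.04, and 19 of the 46 lay in the brightest 20%. The helicase subunit Eif4a1 lay above (0.28 ± 0.09), as did its cofactor Eif4h (0.30 ± 0.09).

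Proteasome subunits, which degrade ubiquitin-tagged proteins, had 16 of 37 above (43.2%, against 13.7% of all) and 1 below (2.70%, against 15.3%), with a median of 0.09. Of the 37, 18 lay in the brightest 20%. The 1 below was Psma1, of the core particle, at 311, 295, 277 and 326 against 450 and 482 (-0.62 ± 0.13, limma adjusted p = 0.0598), while Psmb10 gave 0.49 ± 0.15 and Psma7 0.29 ± 0.10. Enzymes that activate and conjugate ubiquitin were divided, 4 of 30 above (13.3%, against 13.7% of all) and 6 below (20%, against 15.3%). Their median was 0.01. Here Ube2d2 counts by its brightest probe set, not the one that passed. Uba3, which activates NEDD8, gave -0.55 ± 0.17, and Ube2m, the NEDD8-conjugating enzyme, 0.35 ± 0.11.

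Xpo1 was the 1 member of 26 nuclear transport genes to pass. Of the 26, 3 lay above (11.5%, against 13.7% of all probe sets) and 6 below (23.1%, against 15.3%). The small GTPase Ran, which drives this transport, gave 0.22 ± 0.08 and its importer Nutf2 0.45 ± 0.16. Taf9b was the 1 of 44 basal transcription genes to pass, with 10 above (22.7%) and 5 below (11.4%). The polymerase subunit Polr2j gave 0.32 ± 0.09 and the TFIIF subunit Gtf2f2 0.48 ± 0.15. Splicing and RNA-binding proteins had 4 of 40 above (10%, against 13.7% of all) and 8 below (20%, against 15.3%). Of these, Hnrnpa2b1 gave 532, 493, 485 and 536 against 681 and 669 (-0.40 ± 0.09, limma adjusted p = 0.0744).

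Calcium sensors, which read neuronal calcium signals, had a median of 0.14 in naive and 0.11 in trained samples. Of the 33 measured, 9 lay above and 0 below. That is 27.3% above, against 13.7% of all probe sets and 28.4% of the brightest 20%, which held 17 of the 33. Below it is 0%, against 15.3% of all and 8.67% of the brightest 20%. Kcnip2 (0.37 ± 0.12) and Hpcal4 (0.40 ± 0.13) lay above with Cib1. Glycolysis and creatine kinase genes had 7 of 23 above and 2 below (8.70%, against 15.3% of all), with a median of 0.12. Their 30.4% above lay close to the 28.4% of the brightest 20%, which held 18 of the 23. Aldoc, the brain aldolase, gave 0.49 ± 0.13, and the kinases that restrain pyruvate dehydrogenase differed in sign, Pdk2 at 0.46 ± 0.13 and Pdk1 at -0.43 ± 0.13. Genes of ethanol metabolism and antioxidant defence had 11 of 36 above (30.6%, against 13.7% of all) and 3 below (8.33%, against 15.3%). Among those above were Gpx4 (0.35 ± 0.10), which reduces lipid peroxides, Prdx2 (0.29 ± 0.10) and the metallothionein Mt2A (0.38 ± 0.12). The list median was 0.11. By array that median ran from 0.01 to 0.22, and without alcohol replicate 2 it was 0.07. Both naive control-diet arrays also lay above both isocaloric arrays for Cib1, Aldoc, Gpx4, Prdx2 and Mt2A. They overlapped them for Kcnip2, Hpcal4 and Pdk2. None of the members named here passed (limma adjusted p of at least 0.0744).

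Lists of synaptic function had medians near that of all probe sets, and their sign changed when 1 array was left out. Glutamate receptors and postsynaptic proteins had 4 of 34 above (11.8%, against 13.7% of all probe sets) and 5 below (14.7%, against 15.3%). Their median was 0.00. The AMPA receptor subunit Gria3 gave -0.43 ± 0.15 and the kainate receptor subunit Grik4 0.79 ± 0.29. Grin1 (0.25 ± 0.16), Grin2b (-0.17 ± 0.26) and Gria1 (0.04 ± 0.13) did not pass. GABA genes had 1 of 14 above (7.14%) and 0 below (0%), and synaptic vesicle genes 5 of 29 above (17.2%) and 2 below (6.90%). Of the 29, 18 lay in the brightest class of probe sets, where 28.4% lay above and 8.67% below. The active zone scaffold Rims1 gave -0.43 ± 0.14. Camk2a, a kinase of synaptic plasticity, was at 446 on alcohol replicate 2 and 174 to 206 on the other alcohol arrays, against 212 and 216 (0.13 ± 0.27).

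Cyclic nucleotide genes had 1 of 25 above, Pde1b (4.00%, against 13.7% of all probe sets), and 4 below (16.0%, against 15.3%). Their median was -0.06. The lowest was Rapgef4, an exchange factor activated by cyclic AMP, at 186, 199, 142 and 188 against 377 and 355 (-1.02 ± 0.21, limma adjusted p = 0.0598). Axon growth genes had 5 of 32 above (15.6%) and 4 below (12.5%). Of the 32, 20 lay in the brightest class of probe sets, where 28.4% lay above and 8.67% below. Map2, of dendritic microtubules, gave 1143, 1288, 1068 and 1143 against 1562 and 1515 (-0.41 ± 0.09, adjusted p = 0.0918), while Mapt, of axonal microtubules, gave 0.35 ± 0.12. The growth-cone protein Gap43 (0.08 ± 0.11) and Elavl4, an RNA-binding protein that stabilises its mRNA (-0.06 ± 0.12), did not pass.

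Immediate early genes are the transcripts that neuronal activity induces within minutes. They had 0 of 22 above (0%, against 13.7% of all probe sets) and 5 below (22.7%, against 15.3%). Their median was -0.04, and 0.02 without alcohol replicate 2. Ptgs2 (cyclooxygenase 2) gave 65.3, 59.8, 58.3 and 74.5 against 106 and 97.3 (-0.62 ± 0.14, limma adjusted p = 0.0872). Arc (-0.18 ± 0.18), Egr1 (-0.06 ± 0.17) and Homer1 (0.05 ± 0.09) overlapped between the diets, and Fos was too dim to be tested. Neurotrophin and insulin signalling genes had 1 of 21 above (4.76%, against 13.7% of all probe sets) and 2 below (9.52%). Bdnf gave 0.03 ± 0.19. Corticosteroid-related genes had 4 of 18 above (22.2%) and 5 below (27.8%). The glucocorticoid receptor Nr3c1 gave 134, 140, 146 and 141 against 195 and 196 (-0.46 ± 0.10, adjusted p = 0.0838), with a difference of -0.33 ± 0.08 in trained samples (adjusted p = 0.0854).

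The remaining function lists were chaperones, cholesterol genes, and DNA methylation and histone enzymes. Chaperones had 9 of 37 above (24.3%, against 13.7% of all probe sets) and 4 below (10.8%, against 15.3%), median 0.05. Of the 37, 23 lay in the brightest class of probe sets, where 28.4% lay above and 8.67% below. Cholesterol genes had 3 of 19 above (15.8%) and 4 below (21.05%), median 0.00. DNA methylation and histone enzymes had 3 of 22 above (13.6%) and 5 below (22.7%), median 0.05. Hsp90ab1 gave 0.39 ± 0.12 and the chaperonin subunit Cct6a -0.45 ± 0.13. No member of these lists passed.

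**Figure D4:**
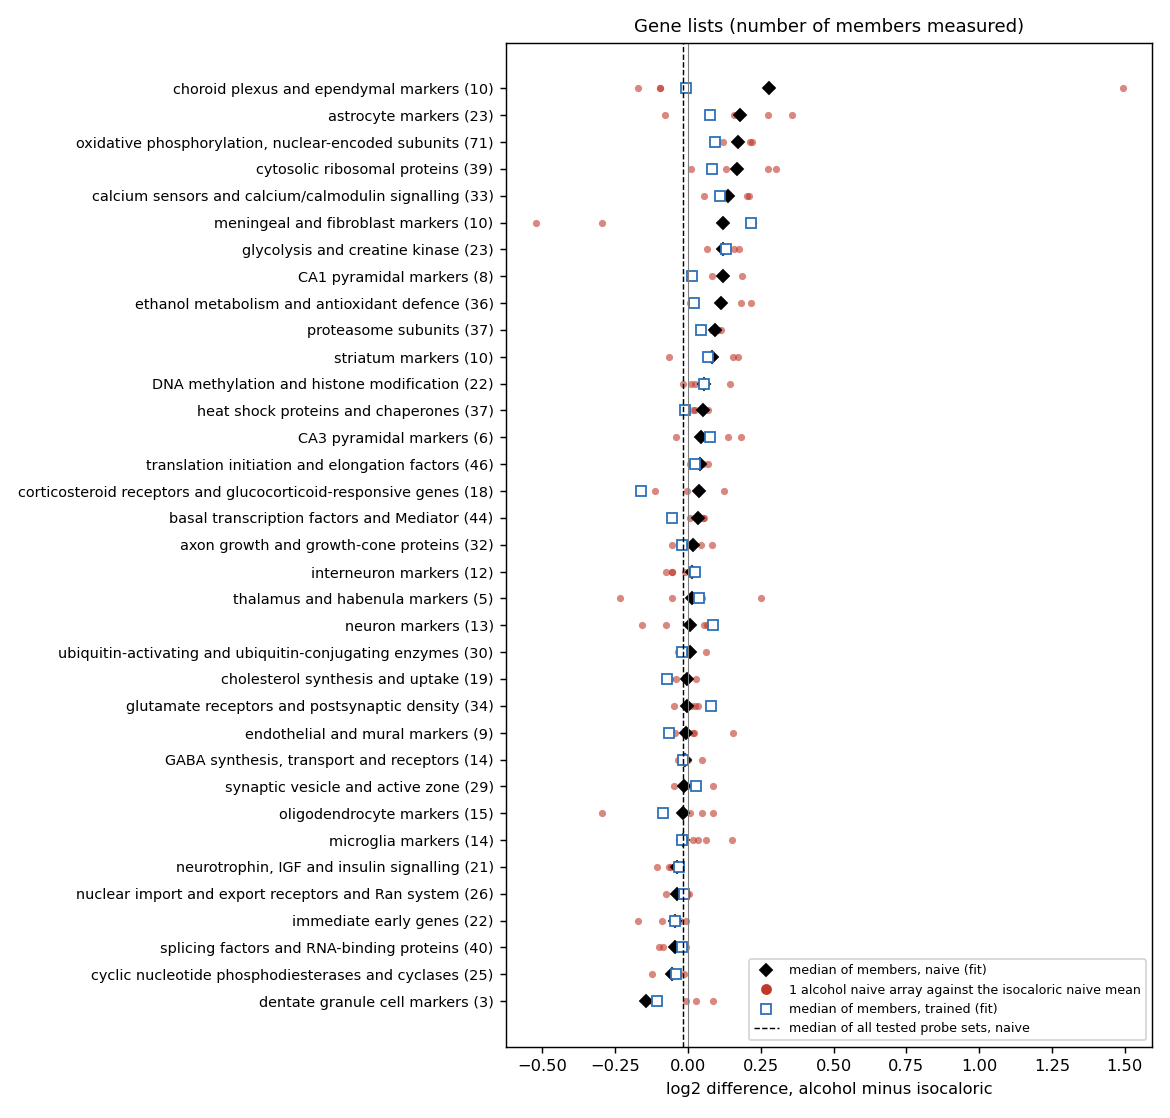
Median log2 difference (alcohol minus isocaloric) of the members of each gene list. Black diamonds are the fit on naive samples, open squares the fit on trained samples, and red points each alcohol naive array against the mean of the isocaloric naive arrays. Oxidative phosphorylation (0.17) has all 4 arrays above 0, whereas the choroid plexus median rests on 1 array at 1.49.

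Marker lists show which cells the samples held. Neuron markers had a median of 0.01, with 1 of 13 above (7.69%) and 2 below (15.4%). All 13 lay in the brightest class of probe sets, where 28.4% lay above, 8.67% lay below and the median difference was 0.07. Neuron markers thus lay above less often than that class and below more often, and whether they depart from it was not tested. The median was 0.01 for interneuron markers, -0.02 for oligodendrocyte markers, -0.02 for microglia markers and -0.01 for endothelial and mural markers. Each of these 5 list medians changed sign when 1 array was left out. In bulk RNA, fewer cells of a type and less RNA per cell cannot be told apart. Astrocyte markers had a median of 0.18, with 5 of 23 above (21.7%, against 13.7% of all probe sets) and 3 below (13.0%, against 15.3%). Of these 23, 16 lay in the brightest class, where 28.4% of probe sets lay above and 8.67% below. By array the astrocyte median was -0.08 on the lowest and 0.36 on the highest, so the alcohol arrays did not share a direction. The complement genes C1qb (0.57 ± 0.16), C1qc (0.41 ± 0.16) and C1qa (0.33 ± 0.14), made in brain by microglia, lay above both isocaloric arrays on all 4 alcohol arrays without passing. They were the only 3 of the 14 microglia markers measured to do so (21.4%, against 13.7% of all probe sets), and 6 of the 14 were above 0. For these 3, both naive control-diet arrays also lay above both isocaloric arrays. Hippocampal subfield markers measured few genes, 8 for CA1 (median 0.12), 6 for CA3 (0.04) and 3 for dentate granule cells (-0.15). The CA1 median was -0.05 without isocaloric replicate 2, and the dentate median -0.02 without alcohol replicate 2.

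Choroid plexus markers had a median of 0.28, which was -0.12 without alcohol replicate 2. Summed over the 10 measured markers, signal was 981 to 9576 on the alcohol arrays and 998 to 1245 on the isocaloric arrays, and 9 further markers lay under the filter on low signal. The mean log2 level of the 10 was 8.35 on replicate 2 and 6.37 to 6.68 on the other 5 arrays. Without that array the count of probe sets past the threshold was 3, all lower with alcohol and all among the 7, and the part of choroid plexus tissue in the calls was not tested. Among the alcohol arrays, replicate 2 was the highest for Taf9b, Ube2d2 and Serinc1, the 3 that passed without it, and the lowest for Xpo1, Fam131a and Apc. Without it, limma adjusted p was 0.0802 for Xpo1 and Fam131a and 0.0554 for Apc.

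Trained samples allowed the same diets to be compared on arrays that share none with the naive comparison, though the fit shares its estimate of spread. In these 4 against 4 arrays, 29 probe sets rose (0.305%) and 9 fell (0.0945%). Of the 6 named genes, only Xpo1 also passed there, at -0.53 ± 0.10 (limma adjusted p = 0.0291), with 216 to 271 under alcohol and 300 to 383 under the isocaloric diet. Serinc1, Ube2d2, Apc and Xpo1 lay below all isocaloric trained arrays on all alcohol trained arrays, as did 4.61% of probe sets. The trained difference was -0.35 ± 0.09 for Serinc1 (adjusted p = 0.0931), -0.58 ± 0.14 for Ube2d2 (0.0821), -0.54 ± 0.17 for Taf9b (0.159) and -0.15 ± 0.07 for Apc (0.313). These values are for the probe sets that passed in naive samples. The other tested probe sets of Xpo1, Ube2d2 and Apc were above 0 in trained samples, and none passed. Xpo1 gave 0.14 ± 0.10 and Apc 0.06 ± 0.13. The brightest Ube2d2 probe set, at -0.43 ± 0.16 in naive samples, gave 0.24 ± 0.13 in trained ones, and the remaining Ube2d2 probe set 0.10 ± 0.13. Over all probe sets 66.4% had the same sign in both, and for the 100 with the smallest naive p this held for 91. For 98 of those 100 the naive difference was the larger in size, a property the choice by naive p favours.

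Ptms and Ptgs2 passed in trained samples and not in naive ones. Ptms, which encodes the chromatin-associated protein parathymosin, gave 1406, 1158, 1315 and 1199 against 983 and 725 in naive samples (0.58 ± 0.14, limma adjusted p = 0.110) and differed by 1.03 ± 0.11 in trained samples (adjusted p = 0.000309). Ptgs2 differed by -0.58 ± 0.11 in trained samples (adjusted p = 0.0334). For neither did the difference between naive and trained pass.

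No probe set passed the test of whether the naive difference departed from the trained one (limma, 0 of 9520, 0%), with 401 at an unadjusted p under 0.05. So no fall described here was shown to be particular to naive rats. Fam131a had the smallest p. It gave 402 to 480 with alcohol and 375 to 442 with the isocaloric diet after training, a difference of 0.10 ± 0.08, and the contrast between the states was -0.68 ± 0.13 (limma adjusted p = 0.326). Scn3a, a voltage-gated sodium channel, followed. It gave 128, 109, 87.7 and 126 against 67.7 and 67.7 in naive samples (0.67 ± 0.17) and differed by -0.44 ± 0.14 in trained ones. The cell-surface proteoglycan Sdc3 ran the other way, at -0.61 ± 0.20 and 0.65 ± 0.16, as did the actin cross-linker Actn1, at -0.43 ± 0.18 and 0.53 ± 0.15. For Tsen15 the values were 1.67 ± 0.38 and -0.42 ± 0.31.

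**Figure D5:**
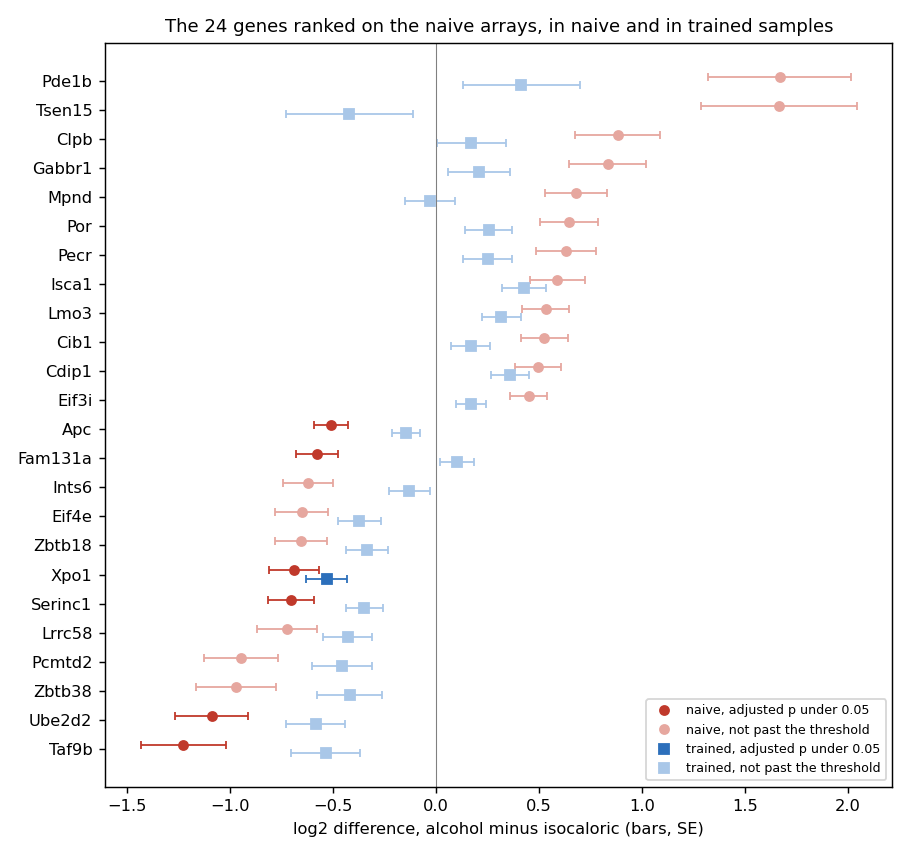
Log2 difference, alcohol minus isocaloric, in naive (circles) and trained (squares) samples for the 6 genes that passed on the naive arrays and the 18 nearest to the threshold. Bars are SE, and full colours mark an adjusted p under 0.05. Xpo1 passed in both states, and Fam131a fell in naive samples and stood at 0.10 in trained ones.

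The calls depend on few arrays. Without isocaloric replicate 1 the count of probe sets past the threshold went from 7 to 1, and that 1 was higher with alcohol. Without isocaloric replicate 2 or alcohol replicate 3 it was 0, without alcohol replicate 1 it was 15 and without alcohol replicate 2 it was 3. The 6 genes stayed lower in all of the 21 or 22 alternative fits in which they were tested, and passed in 11 (Xpo1) to 15 (Serinc1) of them. Scaling changed the split as well: after quantile normalization 7 were higher and 28 lower, and after centring each array on its median 0 passed.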

How the data were processed

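Total RNA of rat hippocampus was measured on 18 Affymetrix arrays, 1 per sample, and samples were grouped by the diet and training state in their descriptions. The authors deposited 1 linear intensity per probe set and array, 15923 in all. MAS5 is named for 2 control-diet arrays in the submitters' processing notes. For the other arrays no source used here gives the algorithm. The mean after trimming 2% at each end was close to 150.0 on every array, so a change of total RNA cannot be seen.

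Of the probe sets, 12789 had a single gene symbol in the platform annotation, 312 had several and 2822 had none, and 12754 matched a RefSeq gene by gene ID. After 57 controls and probe sets under the 40th percentile of mean level were left out, 9520 were tested on log2(signal + 6.06), 6.06 being the 10th percentile of the signals. limma 3.58.1 in R 4.3.3 fitted the means of 6 groups over 18 arrays, with eBayes and a trend, two-sided tests and Benjamini-Hochberg adjustment. Python 3.11.15, pandas 2.3.3, numpy 2.4.6, scipy 1.17.1 and matplotlib 3.10.9 were used. The number of arrays limits the precision.

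The arrays, lists and rules were chosen with earlier results of these data known. Named were genes past the threshold, up to 12 in each direction with the smallest p among those of at least 0.3 (log2) and without overlap, up to 3 members of each of 36 lists with the smallest p, the 5 genes with the smallest p for the difference between states, and a set of plasticity genes and relatives. Of the relatives, Ube2d3, Xpo4 and Fam131b had no probe set under their symbol, and Pde1c did not pass the filter. A gene is given by its probe set with the smallest p, or in lists and among the added genes by its brightest. Among blood cell markers Hbb alone was measured (-0.01 ± 0.19). Markers of thalamus and habenula (5 measured, median 0.01) and of meninges (10, 0.12) are given here alone. The meningeal median ran from -0.52 to 0.22 by array, and was -0.14 without alcohol replicate 2 and -0.33 without isocaloric replicate 2.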

Additional observations from a re-analysis of the deposited data

Results flagged for a closer look

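Of 185 sets of values on the 4 alcohol naive arrays, 5 had 1 array far from the other 3, and chance alone does this in about 1 in 20 such sets, or 5%. On replicate 2 the median choroid plexus marker stood 1.49 (log2) above the isocaloric mean, against -0.17 to -0.09 on the other 3 arrays. The same array was highest for Gap43, with a signal of 986.9 against 862.1 to 882.2, and lowest for Grin2b, a subunit of the NMDA receptor, with 56.76 against 79.91 to 85.48. Acta2, smooth muscle actin of vessel walls, was at 114.8 on replicate 1 and 89.0 to 92.2 on the others. The median ubiquitin-conjugating enzyme was 0.0600 above the isocaloric mean on replicate 4 and between -0.03 and -0.02 elsewhere.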

How the results depend on the processing

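The 7 calls of the naive comparison became 16 with a constant of 32, 1 with no filter on low signal, 35 after quantile normalization, 0 after median centring, 15 from the 6 naive arrays alone, 26 without the control diet and 551 with array weights (264 higher, 287 lower). With the choroid plexus level as a covariate 13 passed, with the actin ratio 0, and with the Gapdh ratio 8. Without the 4 arrays high in choroid plexus markers, an alternative chosen after seeing the data, 3 passed. Leaving out 1 naive array gave 0 to 15. The difference between naive and trained kept 0 calls except for 1 with array weights, and 0 to 1 with 1 naive array left out. Array number as a replicate block gave 0 calls in both. Deviations of same-numbered alcohol and isocaloric naive arrays correlated at 0.03 and -0.06, so the numbers were not taken as pairs. The causes of these changes were not tested. With 2 isocaloric arrays, the spread rests mostly on other groups. The median of all probe sets moved from -0.02 to 0.07 under median centring, so small list medians depend on scaling.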
